A study of Mus musculus with 18 samples.

Results

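The cytosolic HSP70 and HSP110 chaperones were followed at the transcript level through heat shock (HS) and tunicamycin treatment. The 9 genes were chosen by symbol (Hspa1a, Hspa1b, Hspa1l, Hspa2, Hspa4, Hspa4l, Hspa8, Hspa14 and Hsph1) among the 20207 genes listed for each sample. All 9 had at least 1 read in every sample, as did 12731 genes in all, and these were tested. All 18 samples came from NIH3T3 cells, a mouse embryonic fibroblast line, carrying a stable DD-sfGFP transgene, which encodes a destabilizing domain derived from FKBP joined to superfolder GFP. According to the study's methods the cells were sorted for high GFP fluorescence, and the ligand S1, which keeps the domain folded, was present in all of these samples. The 6 groups of 3 samples were unstressed control cells (0 min), cells under HS for 45 or 135 min, and cells treated with tunicamycin (Tu) for 45, 135 or 405 min. The controls therefore carried the transgene and the ligand as the stressed cells did, and all 5 comparisons with control used the same 3 control samples. No label says that replicates were separate cultures, so a p-value measures the spread between these samples, which may be technical.

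HSP70 proteins bind exposed hydrophobic stretches of unfolded proteins and hold or release them in a cycle driven by ATP. J-domain proteins speed up ATP hydrolysis by HSP70, and the HSP110 proteins, which are large relatives of HSP70, act as nucleotide exchange factors that let it release its substrate. Some members are made all the time, whereas others are made when the transcription factor HSF1 binds heat shock elements, which are inverted repeats of the letters GAA. Tunicamycin blocks N-linked glycosylation and so unfolds proteins in the endoplasmic reticulum, which holds its own HSP70 relatives.

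Hspa1a and Hspa1b encode the main stress-inducible HSP70 and Hsph1 the stress-inducible HSP110. The 250 bases before their start sites are shown because these genes changed the most under HS, and those of Hspa4, a constitutive HSP110, because it did not pass the test. The sequences are from RefSeq on build GRCm38.p6, 5′ to 3′ on the strand of the gene, and capitals mark heat shock elements of 2 units (GAANNTTC or TTCNNGAA, each its own reverse complement). They cover chr17:34972157-34972406 (minus strand), chr17:34959239-34959488 (minus strand), chr5:149636316-149636565 (minus strand) and chr11:53300480-53300729 (minus strand), in this order.
Hspa1a: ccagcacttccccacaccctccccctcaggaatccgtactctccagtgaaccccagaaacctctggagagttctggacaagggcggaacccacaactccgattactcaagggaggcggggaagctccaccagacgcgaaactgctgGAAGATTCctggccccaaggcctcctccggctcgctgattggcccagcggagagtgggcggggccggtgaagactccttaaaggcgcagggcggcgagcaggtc
Hspa1b: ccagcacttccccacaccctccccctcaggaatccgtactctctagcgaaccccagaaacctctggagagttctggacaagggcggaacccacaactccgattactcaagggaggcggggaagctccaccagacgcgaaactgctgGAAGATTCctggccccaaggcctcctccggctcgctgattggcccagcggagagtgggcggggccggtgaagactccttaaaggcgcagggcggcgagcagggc
Hsph1: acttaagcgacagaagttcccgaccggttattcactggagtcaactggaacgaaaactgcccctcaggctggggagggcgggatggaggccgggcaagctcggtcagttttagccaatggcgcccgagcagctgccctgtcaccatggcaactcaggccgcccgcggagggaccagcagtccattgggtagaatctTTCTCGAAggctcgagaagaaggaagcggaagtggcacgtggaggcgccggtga
Hspa4: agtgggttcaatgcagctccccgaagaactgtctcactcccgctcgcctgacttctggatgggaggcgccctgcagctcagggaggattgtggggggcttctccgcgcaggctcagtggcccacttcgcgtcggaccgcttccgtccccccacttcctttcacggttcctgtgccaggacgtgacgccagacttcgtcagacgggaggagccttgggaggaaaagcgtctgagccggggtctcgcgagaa

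Windows of 250 bases before and 50 bases after the start site were available for all members except Hspa8. Of these 8 members, 3 (Hspa1a, Hspa1b and Hsph1) held an element of 2 units. Of all 27025 genes with a window in the table, 17% held such an element. The element of Hspa1a and Hspa1b was the same GAAGATTC, 104 to 97 bases before the start site, and the windows of the 2 genes were alike at 296 of 300 bases. From the first base of the window, the Hspa1a to Hspa1b differences were C44T, T47C, T249G and C276T, none inside the element. Hsph1 also held TTCTGGAAAGTTC after its start site, which was the only element of 3 units among the members and of a kind found in 0.662% of these genes. The windows of Hspa4, Hspa4l, Hspa14, Hspa2 and Hspa1l held none of these letters. A match of this kind is a description of the sequence and not a binding site.

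In unstressed cells the family was dominated by Hspa8, which encodes the constitutive HSP70 known as HSC70 (chromosome 9 of mm9, 40609356 to 40613282). Levels are given as RPKM, reads scaled by gene length and library total, which allows a comparison between genes. Hspa8 had 1638, 1997 and 1975 RPKM in the 3 control samples, was at rank 30 by mean level among the 20207 genes, and made up 91.9% ± 1.16 (SD, n = 3) of the summed RPKM of the 9 members. The mean control level was 64.3 ± 19.1 RPKM for Hspa4 and 49.7 ± 10.9 for Hsph1 (SD, n = 3). It was 34.4 ± 9.91 for Hspa14, 10.6 ± 2.61 for Hspa4l and 5.64 ± 0.283 RPKM for Hspa2 (SD, n = 3). The lowest were Hspa1b at 1.75 ± 0.0778, Hspa1l at 1.11 ± 0.209 and Hspa1a at 0.522 ± 0.102 RPKM (SD, n = 3). In this order the ranges of Hspa4 and Hsph1 overlapped, as did those of Hsph1 and Hspa14, and the other neighbours did not. Unstressed cells thus held the constitutive HSP70 transcript at a high level, and Hspa1a plus Hspa1b at 0.113% to 0.138% of it.

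The reads counted on genes ranged from 33415592 to 66478268 per sample, and the 9 members took 0.468% to 0.595% of them in control, 0.999% to 1.39% at 135 min of HS and 0.187% to 0.218% at 405 min of Tu. All 10 fibroblast markers had a median of at least 1 RPKM, whereas the sums of 5 epithelial, 4 endothelial and 5 male germ cell markers stayed at or below 0.398, 0.18 and 0.841 RPKM. Of 4 leukocyte markers, Cd68 (median 5.99 RPKM) and Cd14 (3.26 RPKM) were detected, and Ptprc, which defines leukocytes, had a median of 0. Libraries stood apart in how their reads depended on GC content. The study's methods describe both a stepwise library preparation and a commercial RNA-seq kit, the labels do not say which was used for which sample, and its part in the GC trend was not tested. The log2 level of the top quartile of genes by GC content minus that of the bottom quartile, relative to the control mean, was 1.08, 1.23 and 0.008 in the 3 samples at 45 min of HS. It was -0.03, 1.34 and 0.49 at 135 min of HS, 0.86 in Tu 135 min replicate 1, 0.41 in control replicate 1, and between -0.22 and 0.34 in the remaining samples. Transcripts of Hspa1a and Hspa1b are rich in GC (59.2% and 58.1%), that of Hsph1 is at 47.4%, and that of Hspa4l, at 39.5%, is among the poorest, with 2.98% of the genes tested having less.

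**Figure D1:**
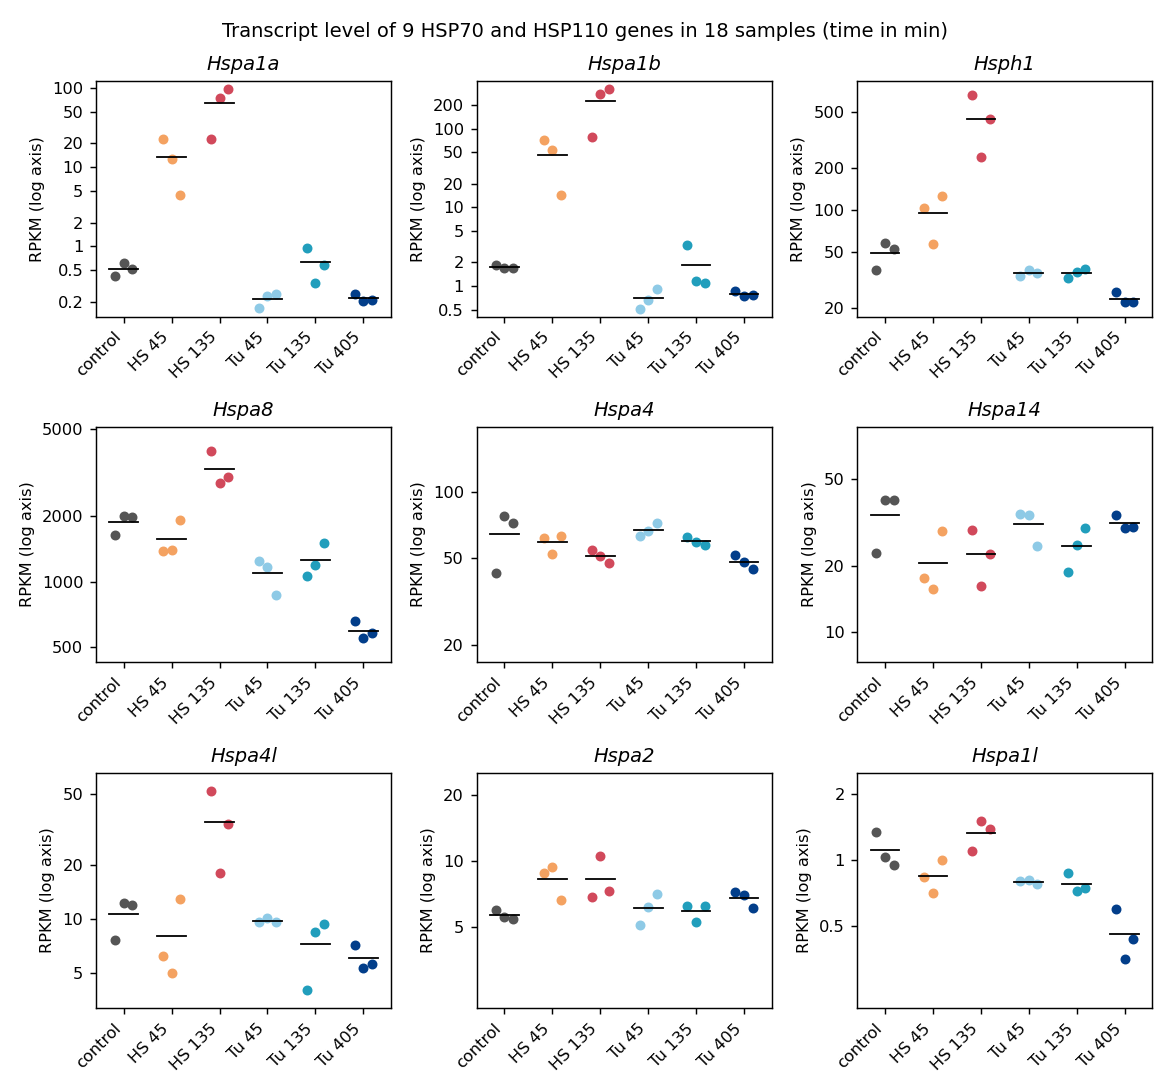
RPKM (log axis) of each of the 9 genes in every sample, with 1 point a replicate in order and a line at the group mean. Hspa1a, Hspa1b and Hsph1 have their highest group mean at 135 min of HS and lie below control at 405 min of Tu, Hspa8 lies between 2845 and 3967 RPKM at 135 min of HS and between 552 and 659 RPKM at 405 min of Tu, and Hspa4 and Hspa14 overlap the control in most groups.

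Heat shock for 135 min induced 5 of the 9 members, the inducible Hspa1a, Hspa1b and Hsph1 together with Hspa4l and the constitutive Hspa8, and repressed none. The rises were 147-fold for Hspa1a, 152-fold for Hspa1b, 10.1-fold for Hsph1, 3.64-fold for Hspa4l and 1.98-fold for Hspa8. In a fit of all 6 groups with 1 surrogate variable, an unlabelled source of variation estimated from the data, the rises of Hspa1a and Hspa1b were 82.5-fold and 77.8-fold, and both were still called. Of all genes tested, 4.75% were induced in this comparison (adjusted p under 0.05 by the quasi-likelihood test of edgeR, Benjamini-Hochberg). The median log2 fold change was 0.99 over the members and -0.02 over all genes.

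Hspa1a (chromosome 17 of mm9, 35106304 to 35109101) had 0.419, 0.623 and 0.524 RPKM in control and 22.5, 75.04 and 97.3 RPKM at 135 min of HS. Hspa1b (chromosome 17, 35093374 to 35096183) had 1.84, 1.70 and 1.71 RPKM in control and 79.1, 273.6 and 319 RPKM at 135 min of HS. Both genes were lowest in HS replicate 1, yet that sample was still far above all controls. The change from control was 7.20 on the log2 scale for Hspa1a (SE, the standard error, 0.667, adjusted p = 0.0058, edgeR) and 7.24 for Hspa1b (SE 0.651, adjusted p = 0.0058, edgeR), and both calls held when any 1 sample was left out. The pair encodes nearly identical proteins, and 59.4% of the 50-base windows of the Hspa1a transcript also occur in Hspa1b, so the division of reads between them is uncertain. Counted as 1 feature, the pair changed by 7.24 on the log2 scale (adjusted p = 0.00617, edgeR). Hspa1a took 18.5% to 26.8% of the reads of the pair in all samples except Tu 135 min replicate 3, where it took 34.9%, while the reads of the pair ranged from 137 to 90020.

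Hsph1 (chromosome 5 of mm9, 150419420 to 150438890) had 37.5, 58.4 and 53.3 RPKM in control and 660, 240.3 and 451 RPKM at 135 min of HS. It changed by 3.33 on the log2 scale (SE 0.351, adjusted p = 0.00792, edgeR). The other 2 HSP110 genes differed from it. Hspa4l (chromosome 3, 40549535 to 40594287), which encodes an HSP110 known from testis and from cells under osmotic stress, had 7.59, 12.3 and 11.9 RPKM in control and 52.0, 18.2 and 34.0 RPKM at 135 min of HS, a log2 change of 1.86 (SE 0.334, adjusted p = 0.0231, edgeR). Hspa4 (chromosome 11, 53073316 to 53113981) had 42.5, 78.2 and 72.3 RPKM in control and 54.6, 51.1 and 47.3 RPKM at 135 min of HS. The groups of Hspa4 overlapped, and a log2 change of -0.13 (SE 0.250, adjusted p = 0.745, edgeR) did not pass the test. Hsph1 was thus above Hspa4 in all 3 samples at 135 min of HS, and Hspa4l, still the lowest of the 3 HSP110 genes, overlapped Hspa4 in its highest sample.

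Hspa8 had 3967, 2845 and 3005 RPKM at 135 min of HS, all above the 3 control samples, with a log2 change of 0.99 (SE 0.232, adjusted p = 0.0442, edgeR). Hspa14 (chromosome 2 of mm9, 3406126 to 3430086), a constitutive HSP70 that acts with ribosomes, had 22.9, 40.0 and 40.1 RPKM in control and 29.3, 16.2 and 22.7 RPKM at 135 min of HS. These groups overlapped, and the log2 fold change of -0.42 did not pass the test (adjusted p = 0.309, edgeR). Among the constitutive members, Hspa8 thus rose and neither Hspa4 nor Hspa14 was called.

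Hspa2 and Hspa1l are known for their high expression in testis. Hspa2 (chromosome 12 of mm9, ending at 77507923 and starting at 77505357 in 16 samples and at 77505163 in 2) had 5.96, 5.51 and 5.44 RPKM in control and 6.84, 10.5 and 7.30 RPKM at 135 min of HS. All HS samples of Hspa2 were above all controls, but the log2 fold change of 0.76 did not pass the test (adjusted p = 0.128, edgeR). Hspa1l (chromosome 17, 35109648 to 35116173) is transcribed away from Hspa1a, with 547 bases between the start sites of the 2 genes in RefSeq. It had 1.34, 1.03 and 0.948 RPKM in control and 1.1, 1.505 and 1.38 RPKM at 135 min of HS. Next to a gene that rose 147-fold, Hspa1l had a log2 fold change of 0.47 with overlapping groups (adjusted p = 0.339, edgeR). Of its 50-base windows, 9.58% also occur in Hspa1a and 7.72% in Hspa1b, so a part of its reads may belong to them.

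**Figure D2:**
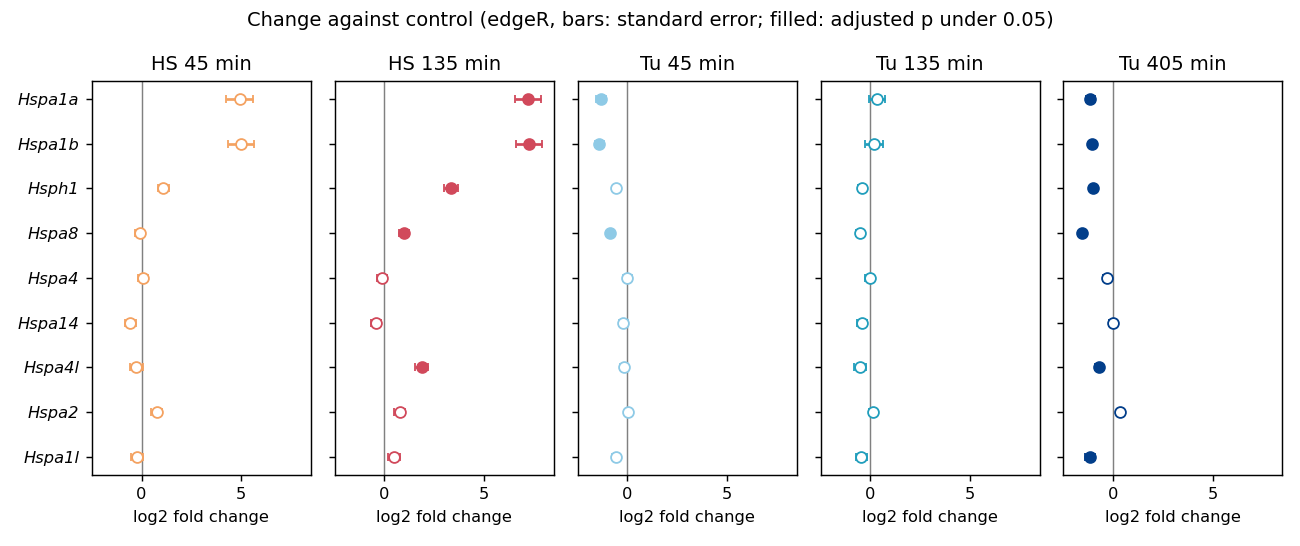
Log2 fold change of each gene against control in the 5 stressed groups, with bars for the standard error and filled points for an adjusted p under 0.05 (edgeR, 3 samples a group). There are 5 filled points at 135 min of HS, all above 0, and at 405 min of Tu 6 points are filled, all below 0.

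The calls at 135 min of HS rested on few samples, and with total counts in place of TMM normalization Hspa8 (log2 fold change 0.82) was not called. Without control replicate 1, Hspa8 and Hspa4l lost theirs, and without control replicate 2, control replicate 3 or HS replicate 3, Hsph1 lost its call as well (adjusted p up to 0.0663), which left 2 called members against 5. The GC trend and the levels both varied within the group. Hspa1a plus Hspa1b summed to 102, 349 and 416 RPKM in the samples with trends of -0.03, 1.34 and 0.49, and Hsph1 and Hspa4l were highest in the sample with the lowest trend and lowest in that with the highest. With an offset for GC content in the fit the same 5 members passed, at log2 fold changes of 6.92 for Hspa1a, 7.04 for Hspa1b, 3.61 for Hsph1, 2.39 for Hspa4l and 1.13 for Hspa8. That fit called 1555 genes higher and 677 lower, and the median log2 fold change of all genes was 0.139 in it.

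**Figure D3:**
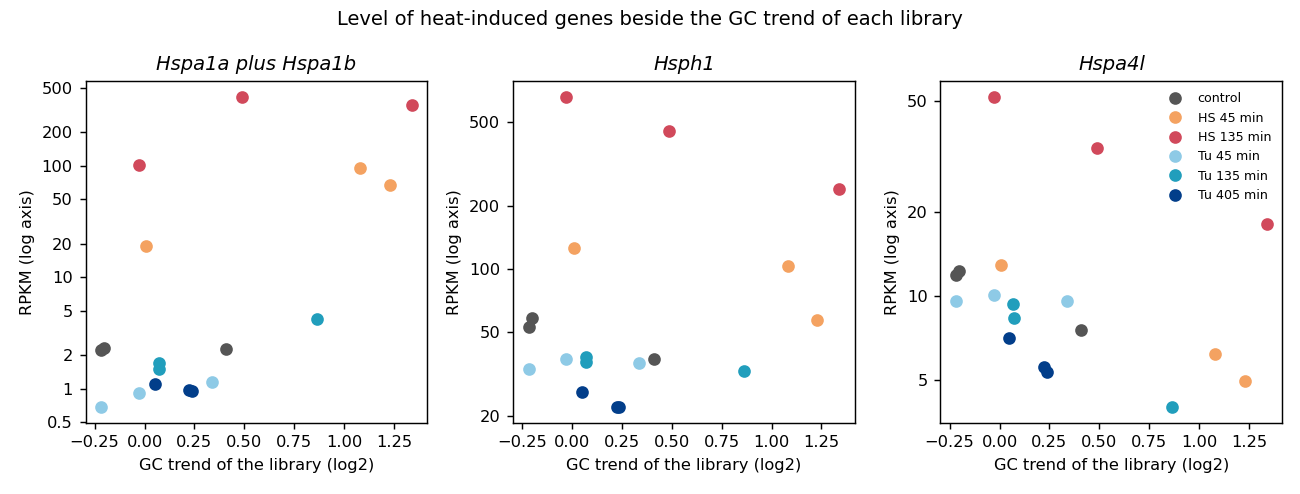
RPKM (log axis) of Hspa1a plus Hspa1b, Hsph1 and Hspa4l in each sample against the GC trend of its library, the log2 level of the top GC quartile of genes minus that of the bottom quartile relative to control. Within 135 min of HS the inducible pair is lowest (102 RPKM) and Hsph1 (660 RPKM) and Hspa4l (52.0 RPKM) are highest in the sample with the lowest trend.

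At 45 min of HS the inducible pair was already above all controls in all 3 samples, while Hspa8, Hspa4 and Hspa4l overlapped them. Hspa1a had 23.1, 12.8 and 4.51 RPKM and Hspa1b had 71.5, 54.3 and 14.3 RPKM. The log2 fold changes of 4.93 for Hspa1a and 4.99 for Hspa1b did not pass the main test (adjusted p = 0.192 for both, edgeR), and were 3.69 and 3.50 with the surrogate variable, where both passed. In the main test 0% of the 12731 genes were called, with 1568 higher and 912 lower at an unadjusted p under 0.05. Without HS 45 min replicate 1 the log2 fold change of Hspa1a was 4.28. Hsph1 had 104, 57.6 and 125 RPKM, of which 1 sample lay within the control range, and a log2 fold change of 1.10 (adjusted p = 0.227, edgeR). Hspa1a, Hspa1b and Hsph1 were the 3 members called by edgeR's exact test (251 genes higher and 39 lower in all) and by DESeq2 (386 higher and 65 lower). HS 45 min replicate 3, which had the lowest level of the pair and a GC trend of 0.008 against 1.08 and 1.23 in the others, decided the count. Without it Hspa1a, Hspa1b, Hsph1 and Hspa2 passed as higher and Hspa14 as lower than control, and 2737 genes were called higher and 3049 lower.

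The remaining members at 45 min of HS gave no call with all samples. Hspa8 had 1390, 1395 and 1912 RPKM (log2 fold change -0.09, adjusted p = 0.802, edgeR), and Hspa4l had 6.19, 4.98 and 13.0 RPKM (log2 fold change -0.27, adjusted p = 0.595, edgeR). Hspa4 had 61.9, 52.4 and 63.1 RPKM and Hspa14 had 17.7, 15.7 and 28.9 RPKM, in both cases with 1 or more samples within the control range. Hspa2 was above all controls at 8.78, 9.42 and 6.65 RPKM (log2 fold change 0.76, adjusted p = 0.235, edgeR), and Hspa1l overlapped them at 0.841, 0.709 and 0.999 RPKM.

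From 45 to 135 min of HS, Hspa8, Hspa4l, Hsph1, Hspa1b and Hspa1l each lay higher in all 3 later samples. The share of all genes without overlap between these times was not counted. The log2 difference was 1.03 for Hspa8 (adjusted p = 0.177), 2.10 for Hspa4l (adjusted p = 0.174), 2.20 for Hsph1 (adjusted p = 0.157) and 2.20 for Hspa1b (adjusted p = 0.373), all by edgeR's quasi-likelihood test. None of the 9 members passed, and 0% of all genes were called, with 658 higher and 823 lower at an unadjusted p under 0.05. edgeR's exact test called 3 members in this comparison (108 genes higher and 91 lower in all), and so did DESeq2 (194 higher and 209 lower). The ranges of Hspa1a at the 2 times overlapped.

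Tunicamycin for 405 min repressed 6 of the 9 members (Hspa8, Hspa1a, Hspa1b, Hspa1l, Hsph1 and Hspa4l) and induced none, at a median log2 fold change of -0.99 over the members against -0.01 over all genes. Repression was common in this comparison, with 23.5% of all genes called lower and 23.3% higher. Hspa8 had 659, 552 and 579.5 RPKM, all below every control sample, and was 2.95-fold lower (log2 change -1.56, SE 0.142, adjusted p = 0.000111, edgeR). The summed level of the 10 fibroblast markers was also lower, at 4341 to 4844 RPKM against 9209 to 9702 in control, and its part in the result was not tested. All samples came from the same fibroblast line, so this sum is read as a transcript level and not as a share of cells of a type.

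The inducible Hspa1a and Hspa1b fell from levels that were already low, and Hsph1 from a mean of 49.7 RPKM in control. At 405 min of Tu, Hspa1a had 0.251, 0.202 and 0.212 RPKM (log2 fold change -1.15, adjusted p = 0.00322, edgeR) and Hspa1b had 0.855, 0.742 and 0.761 RPKM (log2 fold change -1.06, adjusted p = 0.00105, edgeR). Hsph1 had 26.1, 22.0 and 22.1 RPKM (log2 fold change -0.99, adjusted p = 0.00147, edgeR). Hspa4l had 7.10, 5.33 and 5.56 RPKM (log2 fold change -0.73, adjusted p = 0.0124, edgeR) and was no longer called without Tu 405 min replicate 2 or 3. Hspa1l had 0.594, 0.350 and 0.437 RPKM (log2 fold change -1.19, adjusted p = 0.00566, edgeR). Each of these 5 genes lay below all 3 controls, and the share of all genes without overlap was not counted. The repressed members thus include genes of the inducible, the constitutive, the HSP110 and the testis-enriched classes. Hspa8 was the only constitutive and Hspa1l the only testis-enriched member among them.

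Of the 3 members not called, Hspa4 had 51.8, 47.8 and 44.5 RPKM at 405 min of Tu (log2 fold change -0.32, adjusted p = 0.209, edgeR) and Hspa14 had 34.5, 30.0 and 30.2 RPKM (log2 fold change -0.03, adjusted p = 0.917, edgeR). Hspa2 went the other way, with 7.19, 7.02 and 6.11 RPKM, above all controls (log2 fold change 0.34, adjusted p = 0.0676, edgeR). Without control replicate 1, in which Hspa4, Hspa14 and Hspa4l were each at their lowest control level, all 9 members were called, with Hspa2 higher and Hspa4 and Hspa14 lower. Calls were common in that fit, with 4017 of the 12731 genes higher and 3880 lower. In a fit of all 6 groups with 1 shared spread, Hspa1a, Hspa1b and Hspa4l were not called.

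Hspa8, Hspa1a and Hspa1b were repressed at the first time point of tunicamycin, 45 min, in a comparison in which 2.17% of all genes were called lower and 4.01% higher. Hspa8 had 1248, 1167 and 873.5 RPKM (log2 change -0.85, SE 0.167, adjusted p = 0.0306, edgeR). Hspa1a had 0.164, 0.237 and 0.249 RPKM (log2 fold change -1.35, adjusted p = 0.0265, edgeR), and Hspa1b had 0.516, 0.669 and 0.906 RPKM (log2 fold change -1.40, adjusted p = 0.0214, edgeR). All 3 genes were below every control sample, but all 3 calls were lost without control replicate 2, control replicate 3, Tu 45 min replicate 1 or Tu 45 min replicate 2, and only that of Hspa1b was kept without Tu 45 min replicate 3. Without control replicate 1, Hsph1 and Hspa4l were called as well, which made 5 members against 3. Over all genes that fit called 1391 higher and 1108 lower.

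Hsph1 (33.7, 37.4 and 35.7 RPKM) and Hspa1l (0.803, 0.814 and 0.774 RPKM) also lay below all controls at 45 min of Tu, with log2 fold changes of -0.55 and -0.56 that did not pass (adjusted p = 0.0856 and 0.147, edgeR). The share of all genes below every control sample was not counted. Hspa4 (62.9, 66.8 and 72.3 RPKM), Hspa14 (34.7, 34.2 and 24.8 RPKM), Hspa4l (9.58, 10.1 and 9.63 RPKM) and Hspa2 (5.10, 6.12 and 7.05 RPKM) overlapped the control.

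No member was called at 135 min of Tu, where 0.126% of all genes were called higher and 0.00785% lower. Hspa8 had 1067, 1191 and 1498 RPKM, again below all controls (log2 fold change -0.52, adjusted p = 0.216, edgeR), so its values at 45 and 135 min overlapped. Hspa1a had 0.961, 0.341 and 0.590 RPKM and Hspa1b had 3.28, 1.17 and 1.10 RPKM, in both cases highest in replicate 1, the library with a GC trend of 0.86. Without that replicate the log2 fold change of Hspa1b changed from 0.17 to -0.60 and that of Hspa1a from 0.35 to -0.17. Hsph1 had 32.7, 36.0 and 38.1 RPKM, Hspa4l 3.996, 8.38 and 9.39 RPKM, Hspa4 62.5, 59.1 and 57.5 RPKM, Hspa14 18.9, 25.1 and 30.1 RPKM and Hspa2 6.25, 5.25 and 6.19 RPKM, each overlapping the control. Hspa1l had 0.868, 0.725 and 0.744 RPKM, below all controls, without a call (adjusted p = 0.397, edgeR). Samples of the same number deviated together in this comparison, and Hspa8, Hspa1l, Hsph1, Hspa4l and Hspa14 were each lower than the control of the same number in 3 of 3 pairs. In a fit blocked on that number the log2 fold changes were -0.53 for Hspa8, -0.44 for Hspa1l, -0.40 for Hsph1, -0.55 for Hspa4l and -0.40 for Hspa14, and none passed (adjusted p between 0.0987 and 0.203, edgeR). Over all genes that fit called 0, with 1653 higher and 1750 lower at an unadjusted p under 0.05 (edgeR). The share of all genes lower in 3 of 3 pairs was not counted, so the member count has no background.

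HS and Tu were then compared directly at 135 min. At this time, Hspa1a, Hspa1b, Hsph1, Hspa4l and Hspa8 were called higher under HS than under Tu, and no member was called lower. Of all genes, 1.3% were called higher and 0.817% lower. The log2 difference was 6.84 for Hspa1a (adjusted p = 0.0191), 7.05 for Hspa1b (adjusted p = 0.0207), 3.74 for Hsph1 (adjusted p = 0.0127), 2.35 for Hspa4l (adjusted p = 0.0408) and 1.5 for Hspa8 (adjusted p = 0.0354), by edgeR with 3 samples a group. All 5 had no overlap between the 3 HS and the 3 Tu samples. Uncalled members also lay apart, Hspa2 and Hspa1l with HS higher and Hspa4 with HS lower. The share of all genes without overlap was not counted. All 5 calls were lost without HS 135 min replicate 3 or without any 1 of the Tu 135 min samples, and that of Hspa4l also without HS 135 min replicate 1 or with total counts. Without Tu 135 min replicate 1 the log2 difference of Hspa1b was 7.85. The remaining members, Hspa4, Hspa14, Hspa2 and Hspa1l, were not called in this comparison.

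The size of a fold change did not follow the amount of transcript. From control to 135 min of HS the mean summed level of the 9 members went from 2038 to 4130 RPKM. Hspa8 accounted for 1402 ± 369 RPKM of this difference (standard error, n = 3 a group), Hsph1 for 401 ± 121 and Hspa1a plus Hspa1b for 287 ± 95.7. The constitutive Hspa8, which changed 1.98-fold, thus made up 67.0% of the added level, and the pair, with fold changes of 147 and 152, made up 13.7%. Hspa8 was still 79.1% ± 3.25 of the summed RPKM at 135 min of HS, Hsph1 10.6% ± 3.44 and the pair 7.47% ± 4.67 (SD, n = 3). At 405 min of Tu the sum was 714 RPKM, and Hspa8 accounted for 96.2% of the difference from control. With reads in place of RPKM, which counts long transcripts more, Hspa8 was 71.0% and Hsph1 15.6% of the sum at 135 min of HS.

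**Figure D4:**
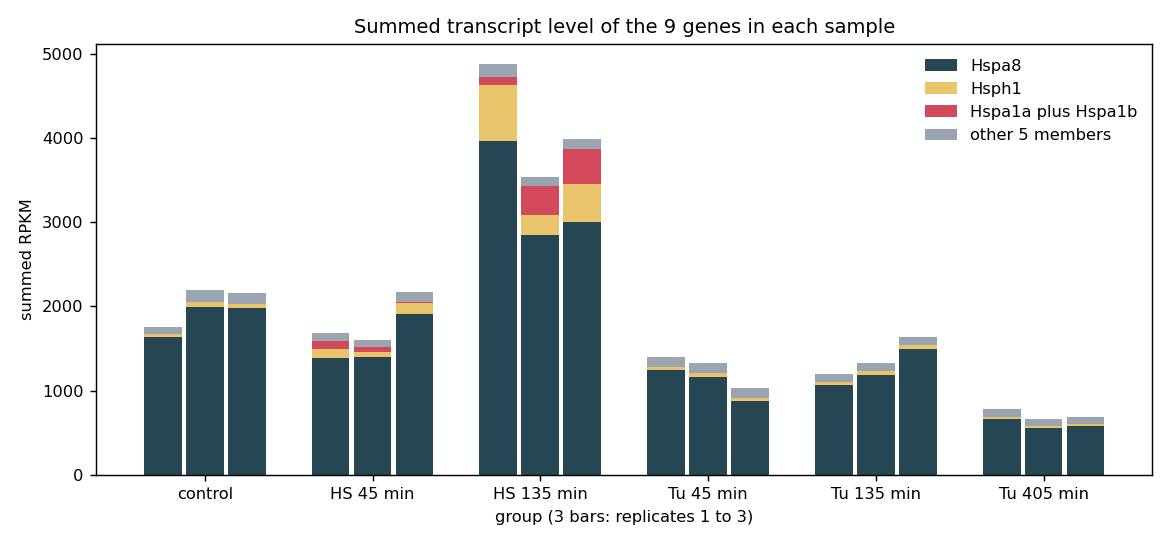
Summed RPKM of the 9 genes in each sample, with 3 bars a group for replicates 1 to 3 and colours for Hspa8, Hsph1, Hspa1a plus Hspa1b, and the other 5 members. The total is 3531 to 4873 RPKM at 135 min of HS, 1758 to 2195 in control and 665 to 787 at 405 min of Tu, and Hspa8 is the largest part of every bar.

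Inducible and constitutive members were also compared within each sample, as ratios that do not depend on the scaling between libraries. The ratio of the pair to Hspa8 can still carry the GC trend, as the GC content is 59.2% for Hspa1a, 58.1% for Hspa1b and 51.2% for Hspa8. Its part in this ratio was not tested. Hspa1a plus Hspa1b was 0.113% to 0.138% of Hspa8 in control, 6.80%, 4.81% and 0.985% at 45 min of HS, and 2.56%, 12.3% and 13.9% at 135 min of HS. The mean log2 ratio was 4.71 higher at 45 min and 5.96 higher at 135 min of HS than in control, with no overlap at either time. Under Tu the same ratio was 0.0545%, 0.0776% and 0.132% at 45 min and 0.398%, 0.127% and 0.113% at 135 min, overlapping the control at both times. At 405 min of Tu the ratio was 0.168%, 0.171% and 0.168%, above all controls, with a mean 0.47 higher on the log2 scale.

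Hsph1 was 73.7% to 88.1% of Hspa4 in control, 168%, 109.9% and 199% at 45 min of HS and 1208%, 470.2% and 954% at 135 min of HS. The log2 ratio was 0.97 and 3.38 higher than in control at these times. Under Tu it was lower than in every control sample at all 3 times, with log2 differences of -0.57 at 45, -0.40 at 135 and -0.69 at 405 min, which put Hsph1 at 46.1% to 50.4% of Hspa4 at 405 min. In a two-sided exact permutation test of 3 against 3 samples the smallest p possible is 0.1, which 8 of these 10 tests reached without overlap between the groups (adjusted p = 0.125 over the 10 tests). The ratio of the inducible pair to Hspa8 at 45 and 135 min of Tu did not reach it (exact permutation p = 0.3 and 0.7).

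**Figure D5:**
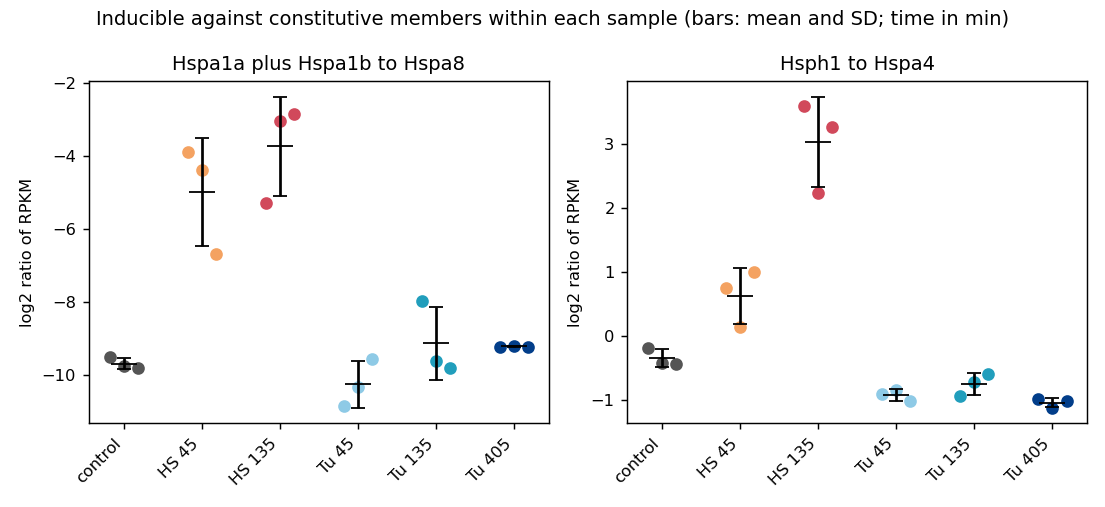
Log2 ratio of RPKM of Hspa1a plus Hspa1b to Hspa8 and of Hsph1 to Hspa4 in each sample, with the mean and SD of each group of 3. Both ratios lie above control in all HS samples, and the ratio of Hsph1 to Hspa4 lies below control in all Tu samples.

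The partners of cytosolic HSP70 and its relatives in other compartments were followed as a list of 29 genes. Of the 29, 10 were induced and none repressed at 135 min of HS (median log2 fold change 0.44 over the list, -0.02 over all genes), where 4.75% of all genes were called higher and 2.64% lower. By class these were 4 of 10 J-domain genes, 4 of 9 exchange factors and other cochaperones, 2 of 6 HSP70 relatives elsewhere, and none of the 2 HSP90 genes or of the 2 heat shock factors. The 3 with the smallest p were Dnaja4 and Dnajb1, which encode J-domain proteins, at log2 fold changes of 4.89 and 2.35, and Bag3, a nucleotide exchange factor that links HSP70 to autophagy, at 4.17 (adjusted p = 0.00485, 0.00534 and 0.00792, edgeR). The call of Bag3 was lost without control replicate 2, control replicate 3 or HS replicate 3. Dnaja4 had a mean of 39.0 RPKM at 135 min of HS against 1.53 in control, and Dnajb1 had 110.8 against 24.7.

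At 405 min of Tu 9 of the 29 were induced and 6 repressed, in a comparison in which 23.3% of all genes were called higher and 23.5% lower, so that these counts lie near the background. The HSP70 relatives of the endoplasmic reticulum rose most, with Hspa5 (BiP) at a log2 fold change of 3.73 and Hyou1, an HSP110 relative, at 3.53 (adjusted p = 4.64e-06 for both, edgeR), followed in order of p by Dnajb2 at 0.95 (adjusted p = 0.000875, edgeR). The mean level of Hspa5 was 233 RPKM in control and 2902 at 405 min of Tu, so that it was below Hspa8 in control and above it at this time. Dnajb4, Dnajb1 and Hsp90aa1, which encode 2 cytosolic J-domain proteins and the inducible HSP90, were the repressed genes with the smallest p, at log2 fold changes of -2.19, -0.86 and -1.10 (adjusted p = 0.000616, 0.00109 and 0.0024, edgeR). Hsp90aa1 was not called in the fit of all 6 groups (adjusted p = 0.135, edgeR), and Dnajb4 was at -1.47 with the surrogate variable. Of the 10 list genes induced at 135 min of HS, Dnajb1 and Dnaja1 were repressed at 405 min of Tu. The members Hspa8, Hspa1a, Hspa1b, Hsph1 and Hspa4l changed in the same directions. Bag3, Dnajb2, Hspa5 and Hyou1 were induced at both, and Dnaja4, Bag2, St13 and Stip1 were not called at 405 min of Tu.

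Among the other HSP70 relatives at 405 min of Tu, Hspa9 of the mitochondria was induced (log2 fold change 0.61, adjusted p = 0.0294, edgeR), a call lost without any 1 of the Tu samples, with total counts and in the fit of all 6 groups. Hspa12a and Hspa12b, distant relatives, were repressed (-1.62 and -0.83, adjusted p = 0.00303 and 0.0083, edgeR), with Hspa12a at only 0.0563 against 0.185 RPKM, and Hspa13 was not called (-0.03, adjusted p = 0.923, edgeR). At 135 min of HS, Hspa5 (0.96, adjusted p = 0.0312) and Hyou1 (1.08, adjusted p = 0.0292) were induced by edgeR, both calls being lost without any 1 control sample or without HS replicate 3. Hspa9 (-0.51), Hspa13 (-0.49), Hspa12a (-0.02) and Hspa12b (0.44) were not called at that time. At 45 min of Tu 1 of the 29, Dnajb1, was repressed and none induced, where 2.17% of all genes were called lower and 4.01% higher. None of the 29 was called at 45 min of HS, where 0% of all genes were, or at 135 min of Tu, where 0.126% were called higher and 0.00785% lower.

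The genes most like each member over the 18 samples were found by the root-mean-square difference of centred log2(CPM + 1) values among 10857 genes with a mean of at least 1 CPM, counts scaled by the library total. The samples share libraries and depth, and the measure is a description. For Hspa1b these were Dnaja4 (1.55), Rmrp (1.61) and Bag3 (1.67), against a spread of 3.05 of Hspa1b itself. For Hsph1 they were Dnajb1 (0.543), Dnaja4 (0.667) and Clu (0.668), against a spread of 1.46. For Hspa4l they were P4ha1 (0.347), Fam46a (0.372) and Zfand2a (0.4), against 0.897, and for Hspa8 they were Diras2 (0.231), Tmed8 (0.277) and Mgat3 (0.309), against 0.804. Hspa4 and Hspa14, which varied little (0.218 and 0.296), were nearest to Dhx29, Tatdn2 and Inpp1 (0.136 each) and to Extl2 (0.0988), Ccndbp1 (0.13) and Ddx31 (0.135). Dnaja4 was the only gene named for more than 1 member.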

How the data were processed

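The members and gene lists were chosen with earlier results of these data known. According to the study's methods, poly(A) RNA was sequenced on an Illumina HiSeq, and reads were aligned to mm9 and counted on RefSeq genes with DNAnexus. The aligner and counter are not given in the sources used here. For each gene the authors deposited an estimated count, not normalized, and an RPKM value made from it. The authors also deposited a score and a signal, both rescaled from the RPKM within each sample, which were not used.

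Estimated counts were rounded and each comparison was fitted on its 6 samples with edgeR 4.0.16 (TMM normalization, quasi-likelihood test), with Benjamini-Hochberg adjustment over the 12731 genes that had at least 1 read in all 18 samples. Genes at an adjusted p under 0.05 are called induced or repressed. Standard errors were computed from the fold change and its F statistic. The script was tested on simulated data. With the fitted spread of the 135 min HS comparison it called 84 of 100 genes changed by 2 on the log2 scale. It called 8 of 100 changed by 1, so that such changes could be missed at this spread and number of samples. Ratios of RPKM were compared by exact permutation tests (scipy 1.17.1).

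Named genes were all 9 members and the 3 most alike genes of 6 members. From a list of 29 partners and relatives, the 3 with the smallest p in each direction were named. This was done at 135 min of HS and at 405 min of Tu. The HSP70 relatives elsewhere and the other list genes induced at 135 min of HS were also named. Promoter windows came from RefSeq (GRCm38.p6), and GC content from GENCODE transcripts on mm9, which covered 94.5% of the genes tested. Coordinates of 741 genes differed between files, so values were joined by symbol. Alternatives were DESeq2 1.42.0, its size factors, total counts, the exact test, a wider filter, a fit of all groups alone or with 1 surrogate variable (sva 3.50.0), the replicate number as a block, the pair summed, and each sample left out. The GC content offset (lowess, span 0.3) was added after seeing the data. Samples of the same number deviated together at every number only for Tu 135 min and control (correlations of 0.343, 0.323 and 0.299), where the replicate block changed no member's call.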

Additional observations from a re-analysis of the deposited data

Results flagged for a closer look

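At 135 min, the direct comparison of HS with Tu separated 5 members, which were flagged as differences between the stresses. HS was higher by 6.84 on the log2 scale for Hspa1a, by 7.05 for Hspa1b and by 3.74 for Hsph1. It was also higher by 2.35 for Hspa4l and by 1.5 for Hspa8 (adjusted p between 0.0127 and 0.0408, edgeR, all 3 HS samples above all 3 Tu samples for each gene). Of the members not called, Hspa2 and Hspa1l also lay higher under HS without overlap, and Hspa4 lower. Of all genes, 1.3% were called higher and 0.817% lower, and the share without overlap was not counted. All 5 calls were lost with the replicate block, without HS 135 min replicate 3 or without any 1 of the Tu 135 min samples.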

How the results depend on the processing

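With 3 samples a group, 1 sample often decided a call. In the simulation with the spread of 135 min of HS against control, changes of 2 or less on the log2 scale could be missed. The spreads of the other comparisons were not simulated. The number of members called at 45 min of HS was 0, against 3 with the exact test, DESeq2, a fit of all 6 groups or 1 surrogate variable, and 0 to 5 with 1 sample left out. At 135 min of HS it was 5, against 0 with the replicate block and 2 to 6 with 1 sample left out. At 45 min of Tu it was 3, against 1 in the fit of all groups, 0 with the replicate block, 4 with the GC content offset (Hsph1 added), 3 with offset and block, 5 with the surrogate variable and 0 to 5 with 1 sample left out. At 135 min of Tu it was 0, against 1 with the surrogate variable, and at 405 min of Tu 6, against 3 in the fit of all groups, 7 with the GC content offset, alone or with the block (Hspa2 higher, adjusted p = 0.0234 and 0.0336, edgeR), and 5 to 9 with 1 sample left out. From 45 to 135 min of HS it was 0, against 3 with the exact test or DESeq2, 5 in the fit of all groups, 6 with the surrogate variable and 1 with the GC content offset. For HS against Tu at 135 min it was 5, against 0 with the replicate block, alone or with the GC content offset, and 0 to 5 with 1 sample left out. Apart from the comparison of Tu 135 min with control, every comparison had a correlation at or below 0.1 at 1 or more numbers. Others were high, such as 0.796 at number 2 for HS 135 min and HS 45 min. With 3 samples a group these values cannot exclude pairing, so calls lost under the block remain uncertain. At 135 min of HS the block gave log2 fold changes of 6.94 for Hspa1a and 0.99 for Hspa8 (adjusted p = 0.101 and 0.187, edgeR). The block kept the 6 calls at 405 min of Tu, and with the GC content offset it kept 4 members at 135 min of HS. Of all genes, the block called 0 at 135 min of HS against 605 higher and 336 lower in the main analysis, and the surrogate variable called 2398 higher and 2618 lower. With 1 sample left out the calls at 135 min of HS ranged from 10 to 1535 higher and from 0 to 932 lower. For all genes at 45 min of HS, the fit of all groups called 925 higher and 420 lower, and the surrogate variable 641 and 675. At 45 min of Tu the surrogate variable called 1700 higher and 1580 lower, and at 135 min of Tu 1293 and 1433. With the GC content offset 731 and 1363 were called at 45 min of Tu, and 3774 and 2908 at 405 min of Tu. From 45 to 135 min of HS the fit of all groups called 459 and 446, and the surrogate variable 1720 and 1616. Total counts shifted the median log2 fold change of all genes to -0.19 at both times of HS and the GC content offset shifted it to 0.13 and 0.14.

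Sign changes concerned values near 0 or with a wide spread, and none was a called member. At 45 min of HS, Hspa8 (-0.09) became 0.033 with the surrogate variable, 0.085 with the GC content offset and 0.083 with the offset and block, Hspa4l (-0.27) became 0.32, 0.30 and 0.30, and Hspa4 (0.06) became -0.11 with total counts, -0.025 with the surrogate variable and -0.14 to 0.22 with 1 sample left out. At 135 min of HS, Hspa4 (-0.13) became 0.31 with the offset, 0.26 with offset and block and -0.34 to 0.023 with 1 sample left out. At 45 min of Tu, Hspa2 (0.03) became -0.063 with the surrogate variable, -0.073 with the offset, -0.082 with offset and block and -0.11 to 0.17 with 1 sample left out, and Hspa4 (-0.001) became 0.10 with total counts, 0.0025 with the wider filter, 0.034 with the block and -0.21 to 0.15 with 1 sample left out. At 135 min of Tu, Hspa1a (0.35) became -0.13 with the surrogate variable and -0.17 to 0.66 with 1 sample left out, and Hspa1b (0.17) became -0.047 with the block, -0.43 with the surrogate variable, -0.070 with the offset, -0.23 with both and -0.60 to 0.46 with 1 sample left out. Hspa2 (0.11) became -0.053 with the surrogate variable, Hspa4 (-0.04) became 0.15 with the offset, 0.12 with offset and block and -0.24 to 0.12 with 1 sample left out, and the log2 ratio of the pair to Hspa8 (0.55) became -0.025 to 0.88. At 405 min of Tu, Hspa14 (-0.03) became 0.0048 with the block, 0.12 with the surrogate variable, 0.12 with the offset, 0.14 with both and -0.22 to 0.068 with 1 sample left out, and Hspa13 (-0.03) became 0.73, 0.19 with the offset, 0.18 with both and -0.22 to 0.12. At 135 min of HS, Hspa9 (-0.51) became -1.11 to 0.0022, Hspa13 (-0.49) became 0.26 with the surrogate variable and -1.21 to 0.044, and Hspa12a (-0.02) became 0.26 with the offset, 0.22 with both and -0.24 to 0.24. The causes were not tested. The values of single genes were counted together with the shares of the summed level and the count of members with a heat shock element. Of these, 1043 stayed the same, 99 became weaker or lost a call, 50 gained a call and 57 changed sign. A further 14, all shares, moved with reads in place of RPKM.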
